A study of Mus musculus with 2 samples.

Results

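The genes described here encode 9 proteins of the lysosomal membrane or of transport across it: Lamp1, Lamp2, Cd63, Scarb2, Mcoln1, Slc36a1, Cln3, Npc1 and Npc2. They were taken by name from a list of lysosomal genes, among 21486 protein-coding genes with a known strand. The choice was made with earlier results of these data known, so a count above the share of all genes is a description only. Chromatin immunoprecipitation with sequencing mapped the transcription factor USF1 in a lymphoma line of mouse B cells, CH12.LX, whose strain the labels give as B10.H-2aH-4bp/Wts. There was 1 group, of 2 biological replicates, and the labels name no treatment. For each gene, every summit (the point of highest signal in a called region) within 5 kb of an annotated 5′ end or inside the gene was collected. There is no second condition, so nothing is compared between treatments, and no test was made over these genes. The replicates are compared with each other, and counts of genes are set beside the same count over all protein-coding genes. The assay measures binding and not expression, so the identity of the cells could not be checked from markers.

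The lysosome digests macromolecules, and its membrane seals the hydrolases in, carries the products out and senses nutrients. USF1 is a basic helix-loop-helix leucine zipper protein that binds the E-box CACGTG as a dimer. The same core lies in the CLEAR element, a longer E-box found at the promoters of many lysosomal genes and recognised by TFEB and its relatives. USF1 alone was measured here.

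The sequences under the summits differ between the genes in the kind and number of E-boxes, and they are shown first because the results below refer to them. Each line gives 30 bases in the direction of transcription, read from the mm9 genome, with the E-box core in capitals. Mcoln1, Slc36a1 and Cln3 each had a pair of CACGTG copies on either side of the mm9 summit.
Mcoln1, chr8:3500436-3500465, + strand: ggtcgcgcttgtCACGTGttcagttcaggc
Mcoln1, chr8:3500462-3500491, + strand: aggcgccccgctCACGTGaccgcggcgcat
Slc36a1, chr11:55017799-55017828, + strand: ggaatggagcggCACGTGacctgggctagg
Slc36a1, chr11:55017827-55017856, + strand: gggagccagcatCACGTGacagggcccgga
Cln3, chr7:133726882-133726911, − strand: gcaaccctcaagCACGTGatggaaggctca
Cln3, chr7:133726854-133726883, − strand: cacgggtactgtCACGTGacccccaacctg
Lamp1 had a cluster of copies, of which the one nearest the mm9 summit is shown.
Lamp1, chr8:13159134-13159163, + strand: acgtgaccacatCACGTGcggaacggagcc
Scarb2 had the related core CACATG at the summit, and Npc2 had it with its middle 7.5 bp from the summit. This core reads CATGTG on the opposite strand. The intronic summit of Npc1 also had CACATG within 25 bp, and its sequence is not shown.
Scarb2, chr5:92934698-92934727, − strand: gccgctgcagggCACATGactgaaggcctc
Npc2, chr12:86110712-86110741, − strand: atcctgtgagatCATGTGacccagctttga
Cd63 is shown for contrast, since its CACGTG lay 145.5 bp upstream of an internal annotated start and in no called region.
Cd63, chr10:128346762-128346791, + strand: ccaggcagcggcCACGTGgccttgtcctgg

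USF1 was found at the starts of 5 of the 9 genes, Mcoln1, Slc36a1, Cln3, Lamp1 and Scarb2. The authors' optimal list holds 8108 mm10 regions kept by the irreproducible discovery rate (IDR), which keeps regions ranked alike in repeated calls, and their conservative list holds 7356. An optimal summit lay within 1 kb of a 5′ end of each, where 12.5% of all protein-coding genes had one. The window of 5 kb or the gene body added no gene in this list, so the count was again 5 of 9, beside 22.5% of all genes. Each of the 5 genes had exactly 1 optimal summit, and each of these 5 regions overlapped a region in both replicates' own lists and in the conservative list. That overlap is partly built in, because the thresholded lists were derived from relaxed calls on the same reads. No other protein-coding start lay within 1 kb of any of the 5 summits. Lamp2, Cd63, Npc1 and Npc2 had no optimal summit in the window.

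**Figure D1:**
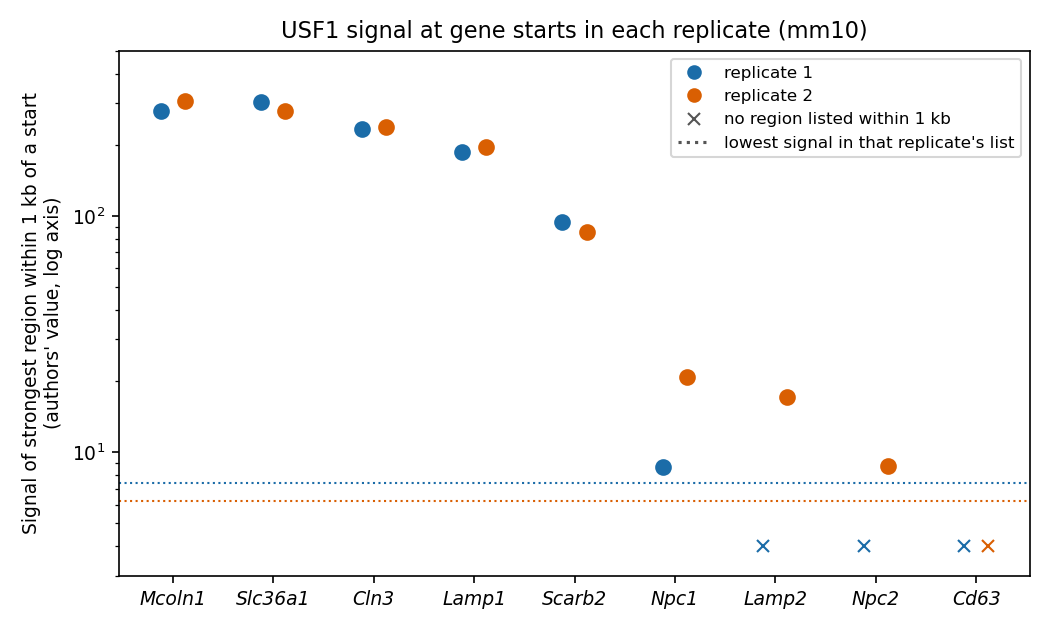
Strongest USF1 region within 1 kb of a start of each gene (mm10), as the authors' signal in each replicate's own list on a log axis; points are single replicates, crosses mark a replicate with no region listed, and dotted lines give the lowest signal in each list. Mcoln1, Slc36a1, Cln3, Lamp1 and Scarb2 lie between 85.4 and 306, and the other 4 genes at or below 20.7.

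The highest signal among the 9 genes in the optimal list was that of Mcoln1, although Slc36a1 was higher in replicate 1 and both Slc36a1 and Lamp1 were higher in the mm9 list. Mcoln1 encodes TRPML1, a cation channel that releases calcium from the lysosome. Its summit lay 52 bp upstream of the only listed start, inside chr8:3500313-3500623 (mm10). Signal, the authors' own value for a region with no stated scale, was 278 in replicate 1 and 306 in replicate 2, with summits 5 bp apart. The mean was 292 ± 19.9 (SD, n = 2). In the list of both replicates the value was 582, rank 36 of 8108 and rank 40 among the 2681 genes bound within 1 kb of a start. Each list has its own scale, so combined values are not compared with those of single replicates, and the SD between replicates includes any difference in scale.

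Slc36a1 encodes PAT1, a proton-coupled carrier that moves small amino acids out of the lysosome. Its summit fell on the first of a pair of listed starts 18 bp apart, in chr11:55204179-55204500 (mm10). Signal was 302 in replicate 1, where the region ranked 10 of 25978, and 279 in replicate 2, where it ranked 169 of 44551. The mean of 290.5 ± 16.7 (SD, n = 2) differed from that of Mcoln1 by less than the spread of either gene, and the order of these genes changed between replicates. In the combined list the signal was 575 and the rank 53.

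Cln3 encodes a lysosomal membrane protein whose loss causes juvenile neuronal ceroid lipofuscinosis. Signal at its start was 234 in replicate 1 and 238 in replicate 2, a mean of 236 ± 2.97 (SD, n = 2), and the combined value was 471. The call depends on the choice of start. The summit, in chr7:126583248-126583525 (mm10), lay 158 bp upstream of an internal start and 2423 bp downstream of the outermost 5′ end of the gene. With 1 start per gene, taken at the end of the gene's span, Cln3 had no optimal summit within 1 kb and the count was 4 of 9. Both replicates listed a weak region near that outermost end, 945 bp downstream of it at 9.53 in replicate 1 and 961 bp downstream at 7.51 in replicate 2. Another weak shared region lay 1186 bp upstream of the internal start at 11.2 in replicate 1 and 1207 bp upstream at 9.55 in replicate 2, and neither was in a thresholded list. In mm9, where 9 starts of protein-coding Cln3 transcripts are annotated, the summit lay 122 bp upstream of the nearest one and inside an untranslated exon of the gene.

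Lamp1 encodes one of the most abundant glycoproteins of the lysosomal membrane. Signal was 187 in replicate 1 and 196 in replicate 2, a mean of 191 ± 6.23 (SD, n = 2). The combined summit lay 29 bp downstream of the start, in chr8:13159028-13159350 (mm10), with a signal of 379 and rank 660. Its paralogue Lamp2 (chromosome X, 38399647 to 38456460 in mm10), which also serves as a receptor for chaperone-mediated autophagy, had no optimal or conservative summit. A region 77 bp upstream of the Lamp2 start was listed in replicate 2 alone, with a signal of 17.2, and replicate 1 listed none in the window. The mm9 list held a Lamp2 peak 70 bp upstream of the start with a signal of 31.1, close to the lowest value in that list, 29.0.

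Scarb2 encodes LIMP-2, the receptor that carries glucocerebrosidase to the lysosome. Its signal was 93.8 in replicate 1 and 85.4 in replicate 2, a mean of 89.6 ± 5.93 (SD, n = 2), with the summit at the same base in both, 29 bp upstream of the start in chr5:92505622-92505754 (mm10). The combined value was 179.85, rank 1749, the lowest of the 5 bound genes. Both replicates also listed a weak region 6.2 kb into the gene, at 14.6 in replicate 1 and 9.89 in replicate 2, which was in neither thresholded list.

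Read from high to low, the order Cln3, Lamp1, Scarb2 held in both replicates below the pair of Mcoln1 and Slc36a1, and neighbouring values among these did not overlap between the replicates. The mm9 list, made from the same replicates, gave another order, with Lamp1 below Slc36a1 and above Mcoln1 and Cln3. The log2 ratio of replicate 2 over replicate 1 ran from -0.14 at Scarb2 to 0.14 at Mcoln1, while the median over 8054 optimal regions found in both replicates was 0.18 with an SD of 0.50. All 5 values lay above the median of 131 over the 2681 bound genes, whose middle 50% ran from 58.97 to 348.

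**Figure D2:**
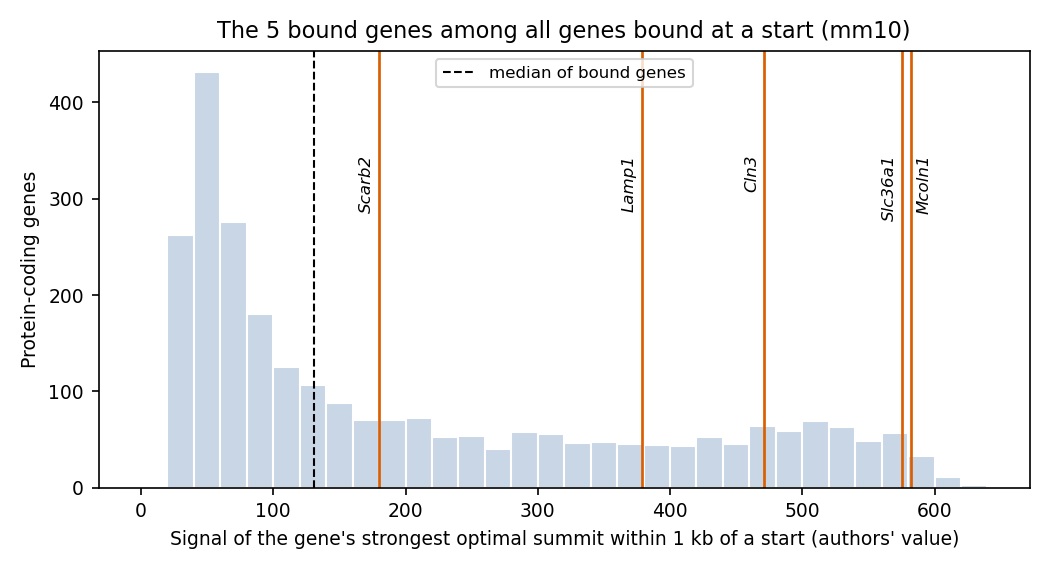
Histogram of the signal of each protein-coding gene's strongest optimal summit within 1 kb of a start, for the 2681 genes that have one (mm10); solid lines mark the 5 bound lysosomal membrane genes and the dashed line the median, 131. Scarb2 at 179.85 lies nearest the median, and Slc36a1 at 575 and Mcoln1 at 582 lie near the upper end.

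The remaining genes had weak regions or none. Npc1 and Npc2 work together to export cholesterol, with the soluble Npc2 handing it to the membrane protein Npc1. Npc1 (chromosome 18, 12189694 to 12236506 in mm10) had a summit 12416 bp inside the gene in the conservative list, with a signal of 43.6, which was 24.3 in replicate 1 and 20.2 in replicate 2, a mean of 22.3 ± 2.89 (SD, n = 2). No optimal region overlapped it, so this site is held by the conservative list and missing from the longer optimal one. With that list 6 of the 9 genes had a summit within 5 kb of a 5′ end or inside the gene, beside 21.2% of all genes. At the Npc1 start, replicate 2 had a region 3 bp upstream with a signal of 20.7, and the nearest in replicate 1 lay 477 bp downstream at 8.61, so the replicates did not share it.

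Npc2 (chromosome 12, 84754559 to 84773112 in mm10) had an intronic region listed in both replicates, 3328 bp downstream of its start in replicate 1 and 3330 bp in replicate 2. Signal was 15.8 in replicate 1 and 9.74 in replicate 2, and neither thresholded list held it. The mm9 list held it at 32.8, rank 9466 of 10624. At the start of Npc2 only replicate 2 listed a region, at 8.73. Cd63 (chromosome 10, 128896231 to 128912822 in mm10), a tetraspanin of late endosomes, lysosomes and exosomes, had no region in replicate 1. Replicate 2 listed 3 regions for Cd63, with signals from 6.33 to 7.07, at the low end of a list whose lowest value was 6.22. Read depth is unknown for these lists, so a site missing from them is below the authors' thresholds and is not shown to be absent.

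In the mm9 list, which was made from both replicates and holds 10624 peaks, 6 of the 9 genes had a summit within 1 kb of a protein-coding transcript's 5′ end, beside 14.3% of 22219 genes. The sixth was Lamp2. Within 5 kb or inside the gene the count was 8 of 9, beside 26.1% of genes, with Cd63 the exception. The mm9 span of Cd63, 128345975 to 128349872, is shorter than its 16592 bp in mm10, so part of the mm10 gene was not covered. The summits of Lamp1, Mcoln1 and Cln3 fell in untranslated exons and those of Slc36a1, Scarb2 and Lamp2 upstream of the gene. The additional genes were the weak ones, Lamp2 at 31.1, Npc2 at 32.8 and Npc1 at 53.6, with ranks from 6052 to 9956. Signal in the mm9 list is on another scale and was not compared with mm10 values.

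The canonical core CACGTG lay within 50 bp of the mm9 promoter summit at Slc36a1, Lamp1, Mcoln1 and Cln3. That is 4 of the 9 genes, where 8.37% of all protein-coding genes had such a summit with the core. Scarb2 had CACATG and no CACGTG, with the middle of the core 0.5 bp from the summit. Lamp2 had neither core within 100 bp of its weak summit. The intronic summits of Npc1 and Npc2 had CACATG without CACGTG within 50 bp, although the Npc2 region held a CACGTG 55.5 bp from its summit. Over all 10624 mm9 peaks, near a start or not, 30.1% had CACATG alone. Over all 3082 mm9 peaks within 1 kb of a start, 56.7% had CACGTG, 12.4% CACATG alone and 30.9% neither, with median signals of 216, 76.4 and 48.1. Signals of the genes ran in the same order as these classes, at 5697, 4301, 3169 and 1622 for Slc36a1, Lamp1, Mcoln1 and Cln3, at 269 for Scarb2 and at 31.1 for Lamp2.

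All 4 promoters with CACGTG held more than 1 copy within 50 bp of the summit; the sequences above show both copies for Mcoln1, Slc36a1 and Cln3 and 1 for Lamp1. The middles of the pair lay 26 bp apart at Mcoln1, 28 bp at Cln3 and 28 bp at Slc36a1. In each of these the mm9 summit lay 0.5 bp from the midpoint of the pair. In the optimal list the summits of Mcoln1 and Slc36a1 also lay between their copies. Both Cln3 copies lay downstream of its optimal summit, 11.5 and 39.5 bp away. Lamp1 held 6 copies within its mm9 peak region, of which 3 had the summit within 50 bp, and the summit lay downstream of these 3. Copies 56.5 and 83.5 bp from the summit lay on its other side, so it fell inside the cluster. Among all mm9 peaks within 1 kb of a start, 119 of 3082 (3.86%) held 2 or more copies wholly within 50 bp of the summit. Those 119 peaks had a median signal of 1428, against 196 for the 1629 peaks with 1 copy. The longer string GTCACGTG contains the core, so each match overlaps a copy counted above, though not every copy lies in one. It was present within 50 bp of all 4 summits, and in 814 (26.4%) of the 3082 mm9 peaks within 1 kb of a start. Only the 1748 of those peaks with CACGTG could hold it, and the 4 summits were all of that kind.

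**Figure D3:**
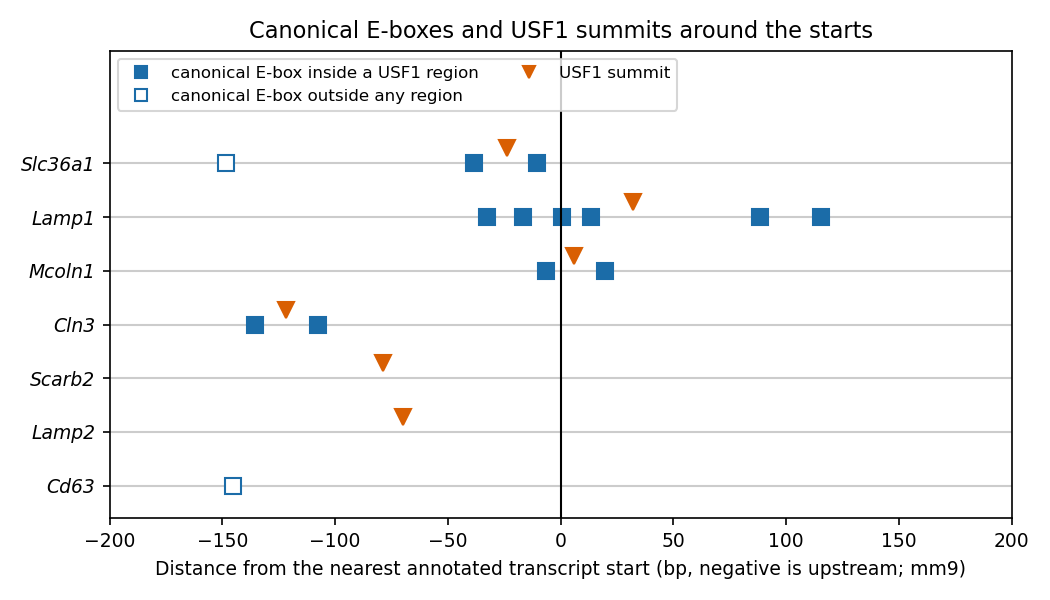
Positions of CACGTG copies (squares, filled inside a USF1 region) and of mm9 summits (triangles) within 200 bp of the nearest annotated transcript start, negative upstream. At Slc36a1, Mcoln1 and Cln3 the summit sits between 2 copies, and Lamp1 has 6 filled squares. The open square of Slc36a1 lies beside a different, internal start. The copy of Cd63 is in no region and also lies beside an internal start.

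Most CACGTG copies of these genes had no USF1 summit. In mm9, 51 copies lay within 5 kb of a start or inside the 9 genes, and 9 of them had a summit within 50 bp. All 9 were among the 14 copies within 1 kb of a start. Over the genome 19.3% of 9756 copies within 1 kb of a protein-coding start had a summit that near. None of the 37 copies farther from a start had one. The share over all genes was 1.85% of 121643 such copies, so a count of 0 among 37 is near the background. Scarb2 illustrates this, with 10 CACGTG copies in the window, none within 1 kb of its start and none with a summit, while its only strong summit lay on CACATG. Npc1 had 8 such copies and Lamp2 had 4, all without a summit and none within 1 kb of a start.

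**Figure D4:**
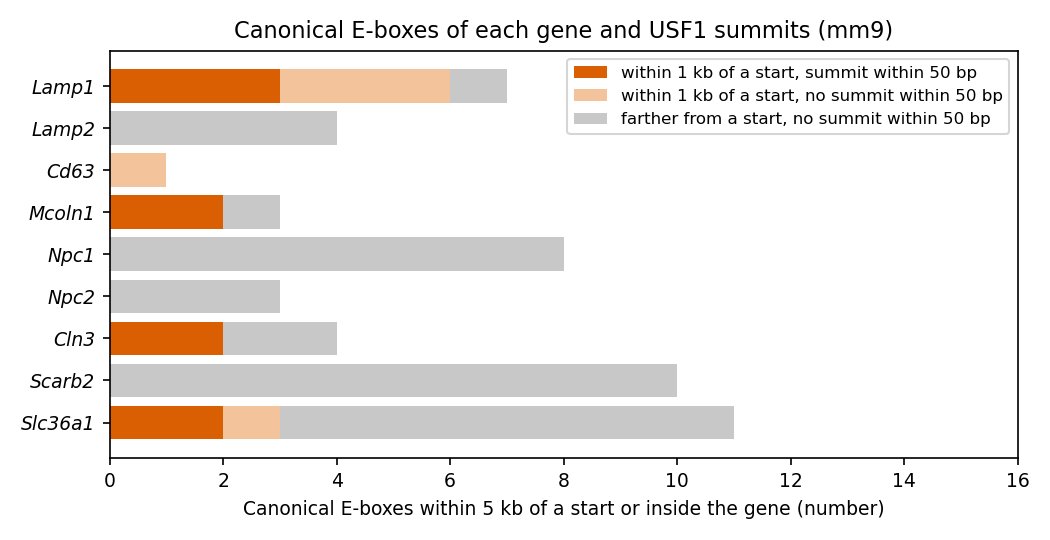
Number of CACGTG copies within 5 kb of a start or inside each gene (mm9), split by distance from a start and by whether a summit lay within 50 bp. Copies with a summit are found at Lamp1 (3), Mcoln1 (2), Cln3 (2) and Slc36a1 (2), and the 10 copies of Scarb2 and 8 of Npc1 have none. Cd63 is counted over its mm9 span, which is shorter than in mm10.

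The base next to the core was more uniform in copies inside a USF1 region than in those outside. All 9 copies with a summit within 50 bp had the form CACGTGA on one strand, and so did the other 4 copies inside a region. Outside regions 7 of 30 copies had it. The 8 copies of Npc1 are left out, since their flanking bases were not recorded. Most of these 30 lay beyond 1 kb of a start, so form and distance cannot be told apart in these genes. The 2 copies near a start but outside any region were CCACGTGG at an internal start of Cd63 and ACACGTGT at an internal start of Slc36a1. Neither had that form. Over all CACGTG copies within 1 kb of a start, 64.3% of 1884 with a summit and 33.4% of 7872 without one had it. The copies within a gene share a promoter, so they are not independent, and no test was made.

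The promoters of the bound and unbound genes overlapped in base composition. In the RefSeq promoter table for GRCm38.p6 (250 bases before to 50 after a start), 8 of the 9 genes matched. Cd63 was represented there only by its internal start, at 128909345, so the promoter of its outermost 5′ end was not examined. CpG observed over expected was 0.949 at Mcoln1, 0.824 at Scarb2, 0.771 at the bound start of Cln3, 0.692 at Lamp1 and 0.679 at Slc36a1, where the median of 21263 protein-coding promoters was 0.567. It was 0.714 at Npc2, 0.55 at Lamp2 and 0.334 at Cd63, so Npc2 lay within the range of the bound genes. CACGTG occurred in 7.84% of all these promoters. It was present in those of Lamp1 (4 copies), Mcoln1 (2), Slc36a1 (2) and the bound start of Cln3 (2), and not in those of Scarb2, Lamp2, Cd63, Npc2 or the outer start of Cln3. The GC box GGGCGG, bound by SP and KLF factors and searched on both strands, was present in 46.2% of promoters. It occurred at Npc2 (3 copies), Lamp2 (2), the bound start of Cln3 (2), Mcoln1 (1) and Scarb2 (1), and at bound Lamp1 and Slc36a1 and unbound Cd63 it did not.

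Other genes of the lysosomal membrane, its transport and its positioning were taken from a list of 71 that left out the vacuolar ATPase, of which 70 were matched. This list too was chosen with earlier results of these data known, so its shares below describe it and test nothing. An optimal summit lay within 1 kb of a start of 27 (38.6%), beside the 12.5% of all protein-coding genes given above. A further 15 had one only within 5 kb or inside the gene, and 28 had none. By that wider rule 42 (60.0%) had a summit, beside 22.5% of all protein-coding genes. The strongest were Spns1, a lysosomal lysophospholipid carrier, at 586, the chloride transporter genes Clcn6 at 572 and Clcn7 at 547, Mfsd1 at 564, Laptm4b at 495 and Tmem55b at 478. Arl8b, a small GTPase that positions lysosomes, had 397, and Slc35f6 had 383. Ctns, the cystine exporter, had 376. Lamp3, the third Lamp gene, and the calcium channel genes Tpcn1 and Tpcn2 had no summit by either rule. Cd68 had none within 1 kb and one of 29.6 within its wider window, although the mm9 list held a peak of 66.5 within 1 kb of its start, with neither E-box core.

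The 5 bound genes lay between 179.85 and 582 in the combined list. The bound members of the wider list had signals from 29.6 to 586 with a median of 305, and 21 of the 27 were above the median of 131 over all bound genes. In the replicates, Spns1 had 283 and 303, Clcn6 279 and 297, and Clcn7 256 and 292, values that overlap those of Mcoln1 and Slc36a1. In mm9, where 14.3% of all protein-coding genes had a promoter peak, 66 of the 71 listed genes were matched and 27 had one. They were not the same genes as in mm10, since Tmem55b, Slc35f6 and Glmp were not among them and Arl8a, Cd68 and Vps13c were. Which names went unmatched in mm9 is not given here. The absence of Tmem55b, Slc35f6 and Glmp therefore does not show that they lacked an mm9 peak. Of these 27, 13 had CACGTG, 2 CACATG alone and 12 neither. Over all mm9 peaks within 1 kb of a start, those shares were 56.7%, 12.4% and 30.9%. The mm9 signals of the 27 genes overlapped between classes, from 52.5 to 3558 with CACGTG and from 34.2 to 951 with neither core. Only 5 of the 27 held 2 or more copies at the summit, namely Mfsd1, Clcn6, Clcn7, Cd164 and Tmem192, while 4 of the 6 genes with an mm9 promoter peak described here did. Whether this difference is more than chance was not tested.

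**Figure D5:**
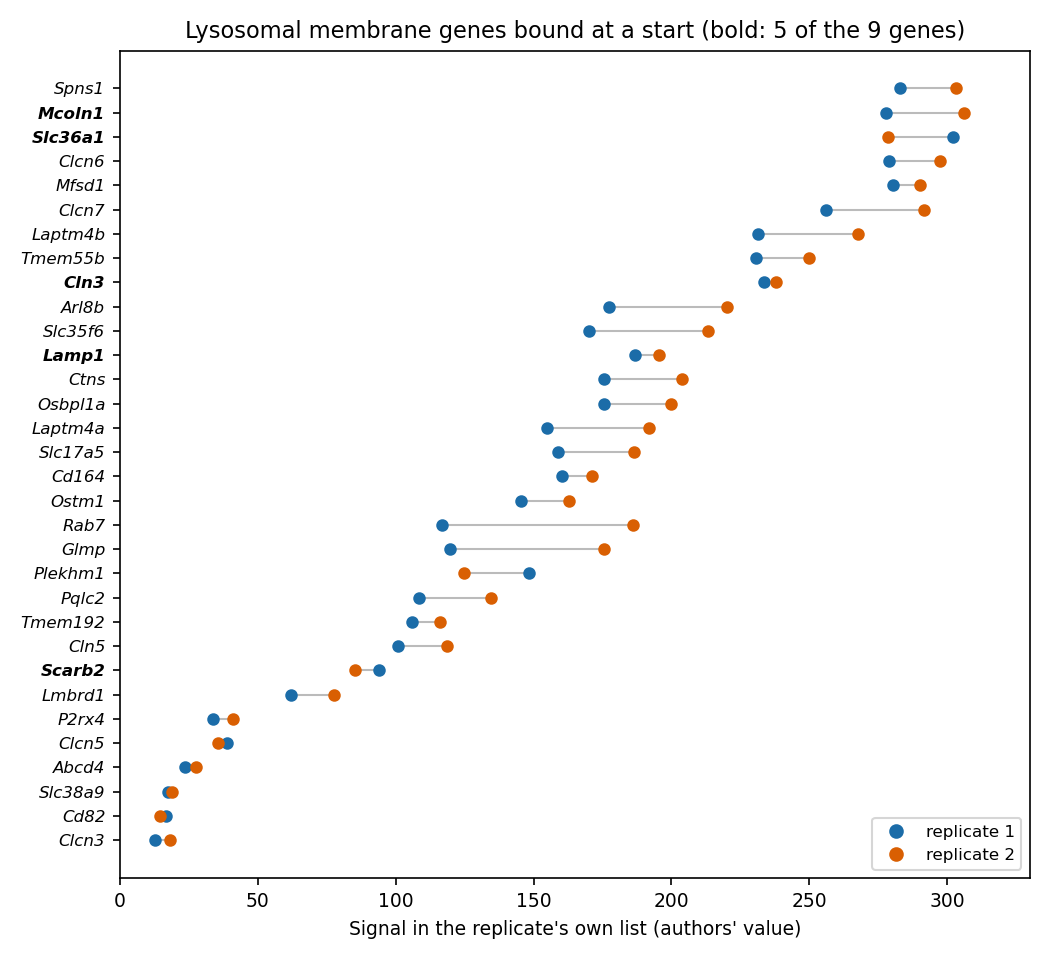
Signal in each replicate's own list at the strongest optimal summit within 1 kb of a start, for the 27 bound genes of the wider lysosomal membrane list and, in bold, the 5 of the 9 genes that were bound; lines join the 2 replicates. Mcoln1 and Slc36a1 lie among Spns1, Clcn6 and Mfsd1 at the top, and Scarb2 lies below 100 in both replicates.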

How the data were processed

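The deposited region lists were used as the authors made them. Per the deposited readme files, a relaxed mm10 list was made for each replicate and for both together, the optimal and conservative lists were derived from relaxed lists by IDR thresholding, and the mm9 list came from both replicates' mm9 alignments. Aligner and peak caller: not given in the sources used here. Read depth per sample is unknown. The signal of each region (column 7) is the authors' deposited value, with no stated scale.

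Summits were taken as region start plus column 10, and coordinates are 1-based. In mm10, 5′ ends were those of the RefSeq gene span and of the RefSeq promoter table (GRCm38.p6), with strand from that table for 17492 genes and from Gencode vM1 for 3994; 401 genes without strand were left out. In mm9 the 5′ ends of protein-coding Gencode vM1 transcripts and the NCBIM37 genome were used. Regions overlapped at 1 bp or more. Motifs were searched on both strands within 50 bp of summits.

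The 9 genes, the wider list and the alternatives were chosen with earlier results of these data known. Named genes were the 9, the 8 strongest of the wider list, and Cd68, Clcn7, Tpcn1, Tpcn2, Ctns and Lamp3. The genes named for having 2 or more copies were added after their values were seen. Calling and motif functions were tested on simulated data. Python 3.11.15, pandas 2.3.3 and numpy 2.4.6 were used. Control libraries and mm10 sequence beyond the promoter table were not used here.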

Additional observations from a re-analysis of the deposited data

How the results depend on the processing

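The 5 genes bound within 1 kb of a start were bound in the conservative list, in replicate 1 alone (its 8108 strongest regions), in the strongest 50% of the optimal list, and at 500 bp and 5 kb. The count was 6 with replicate 2 alone, adding Npc1, 6 in the mm9 list, adding Lamp2, and 4 with 1 start per gene, an alternative chosen after seeing the data, which lost Cln3. Within 5 kb or inside the gene the mm9 list gave 8 genes and 8 summits in place of 5 and 5; leaving out a replicate gave 6 genes and from 6 to 7 summits. The cause was not tested. The count of the wider list ran from 23, in the strongest 50% of the optimal list, to 36, at 5 kb, against 27. Among these alternatives, shares over all protein-coding genes were computed for the mm9 list, at 14.3% within 1 kb and 26.1% by the wider rule. For the conservative list only the wider rule has one, 21.2%. Under the other settings the share over all genes may move too, so those counts are not read against it. The 4 genes with CACGTG at a promoter summit were 4 at windows of 25 and 100 bp and in the strongest 50% of mm9 peaks, and all 5 optimal regions were found in both replicates under both stricter overlaps. Single replicates gave signals of 187 to 196 at Lamp1 in place of 379, 278 to 306 at Mcoln1 in place of 582, 234 to 238 at Cln3 in place of 471, 85.4 to 93.8 at Scarb2 in place of 179.85 and 279 to 302 at Slc36a1 in place of 575; the combined list has its own scale. No paired analysis was possible because there is 1 group. Without read counts, the lists set no limit on weak binding at Lamp2, Cd63, Npc1 and Npc2.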

Other observations

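Summits beyond the windows lay near some of the genes. An optimal summit with a signal of 44.3 lay 1562 bp past the end of Mcoln1 and 69 bp from a start of Pnpla6, the next gene, so it was not counted for Mcoln1. Slc36a1 had one of 62.6 that lay 4489 bp past its end, with no protein-coding start nearer than its own. A summit of 237 past the end of Scarb2 lay 29 bp from a start of Nup54, and it exceeded the 179.85 of Scarb2 itself.

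The place of Lamp1 differed between the builds. Its promoter peak ranked 11 of 10624 in the mm9 list (the top 0.104%) and 660 of 8108 in the optimal list (the top 8.14%). Slc36a1 ranked 2 and 53, Mcoln1 53 and 36, and Cln3 249 and 375. The lists differ in build, length and possibly caller, and the reason for the change at Lamp1 was not tested.

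Within 5 kb of a start or inside the gene, Slc36a1 had 11 CACGTG copies in mm9, some of them upstream of the gene, and the 2 with a summit were those beside its outermost start. A copy 148.5 bp upstream of an internal start had no region. Cln3 showed the opposite arrangement, since both of its occupied copies lay beside internal starts and the promoter of its outermost start had CACATG and no CACGTG.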
